A study of Mus musculus with 192 samples.

Results

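Single R1 mouse embryonic stem (ES) cells were ordered by how many gene molecules each yielded per molecule of added synthetic RNA. The cells with the highest and the lowest yield were compared gene by gene. A fixed amount of a spike-in mix of synthetic RNAs went into every reaction, so the number of gene molecules per spike-in molecule is a relative measure of the RNA content of a cell. Of 96 wells on 1 microfluidic chip, 39 were used. A well was used if it held at least 53000 gene molecules, at most 30000 spike-in molecules and fewer than 25 molecules of the keratins Krt8 and Krt18 per 10000 gene molecules, and well E02 was left out. The 39 wells were thus chosen by measured molecule counts, and they were ranked and split by gene molecules per spike-in molecule into a bottom, a middle and a top group of 13 wells each.

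All cells came from 1 culture of the R1 line, grown on irradiated mouse embryonic fibroblast feeders in ES1 medium and harvested at confluency, with no other treatment, genotype or time point. Feeder cells were allowed to settle out, dead and early apoptotic cells were removed with annexin V beads, and the suspension was frozen and thawed before capture. The labels list 192 samples, which are 96 cells in 2 library forms, one being the same libraries after 9 further cycles of PCR. The molecule table has 1 column per well for both forms, so every cell barcode is shared by the 2 forms and they could not be compared. With 1 culture, cells are not replicates of a condition, and all differences below are descriptions of these 39 cells with no p-value.

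Messenger RNA content varies widely among cells of one culture, because larger cells and cells later in the cell cycle generally hold more RNA. In most growing cells the bulk of messages scales with cell size, so that each message keeps about the same share of the total. Replication-dependent histone messages are a known special case: they lack a poly(A) tail in their mature form, are made in S phase and are tied to DNA replication. The labels describe poly(A) RNA, so the histone molecules counted are those that this priming reached. Histone genes lie in clusters, and their promoters commonly hold a CCAAT element, bound by the NF-Y complex.

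The histone genes are the gene group on which the comparison turns, so the promoters of 3 of them with reads that matched uniquely are shown first, beside that of Rpl39l, the gene with the largest positive difference. Each is the 150 bases before the start of the gene, from RefSeq on build GRCm38.p6, 5′ to 3′ on the strand of the gene. Capitals mark matches on either strand to 3 promoter words: the CCAAT box, the TATA box word TATAAA and the GC box word GGGCGG. No match overlaps another in these 4 promoters.
Hist1h2ae, listed by RefSeq as H2ac8, chr13:23571221-23571370, minus strand: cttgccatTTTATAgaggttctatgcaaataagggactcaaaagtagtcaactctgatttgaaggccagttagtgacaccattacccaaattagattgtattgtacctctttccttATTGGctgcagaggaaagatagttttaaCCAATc
Hist1h3c, listed by RefSeq as H3c3, chr13:23745522-23745671, minus strand: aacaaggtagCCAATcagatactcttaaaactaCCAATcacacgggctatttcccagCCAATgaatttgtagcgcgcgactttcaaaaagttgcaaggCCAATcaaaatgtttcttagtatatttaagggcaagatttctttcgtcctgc
Hist1h4d, listed by RefSeq as H4c4, chr13:23581418-23581567, plus strand: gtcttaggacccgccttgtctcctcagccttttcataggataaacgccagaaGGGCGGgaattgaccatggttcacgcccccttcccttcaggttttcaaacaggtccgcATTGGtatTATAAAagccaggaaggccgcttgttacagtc
Rpl39l, chr16:10170078-10170227, plus strand: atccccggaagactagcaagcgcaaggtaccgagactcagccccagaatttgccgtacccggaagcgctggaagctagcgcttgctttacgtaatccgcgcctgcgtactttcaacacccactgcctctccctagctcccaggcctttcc

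Of the 12 histone genes with enough molecules to be compared, 9 had an entry among the promoters. CCAAT was present within 150 bases in 9 of 9, against 24.5% of all 32851 promoters in the table. TATAAA was found in 3 of 9, against 7.57% of all, and GGGCGG in 1 of 9, against 28.6% of all. Hist1h3c carried 4 CCAAT words and Rpl39l carried none of the 3 words. A match is a run of letters in this window and was not measured as a binding site.

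The RNA content of the 39 wells ran from 8.01 to 17.6 gene molecules per spike-in molecule, with a median of 12.7. The bottom group averaged 10.5 ± 1.20 (SD, n = 13 wells), the middle group 12.8 ± 0.547 and the top group 14.9 ± 1.08. The top group therefore held 1.41 times the content of the bottom group, and the wells differed 2.20-fold from lowest to highest. These values define the groups.

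Gene molecules, the numerator, carried most of this spread. The bottom group held 53975 to 103237 gene molecules with a median of 88410, the middle group 90434 to 118749 with a median of 97354, and the top group 98748 to 149091 with a median of 121869. Spike-in molecules ranged only from 6659 to 9030 across all wells, with a coefficient of variation of 8.03%. Their medians were 7917, 7640 and 8254 in the bottom, middle and top group.

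The content measure ranked the wells much as gene molecules alone did, with a Spearman rho of 0.919 over 39 wells. The 2 share their numerator, so this is a description. Ranking by gene molecules alone kept 12 of the 13 top wells and 10 of the 13 bottom wells, but of the genes that passed the size rule given below it shared only 38 of 86 higher and 22 of 35 lower ones. The 5 most abundant spike-ins made up 80.8% of all spike-in molecules, and ranking on the other spike-ins kept 12 of 13 top and 13 of 13 bottom wells.

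**Figure D1:**
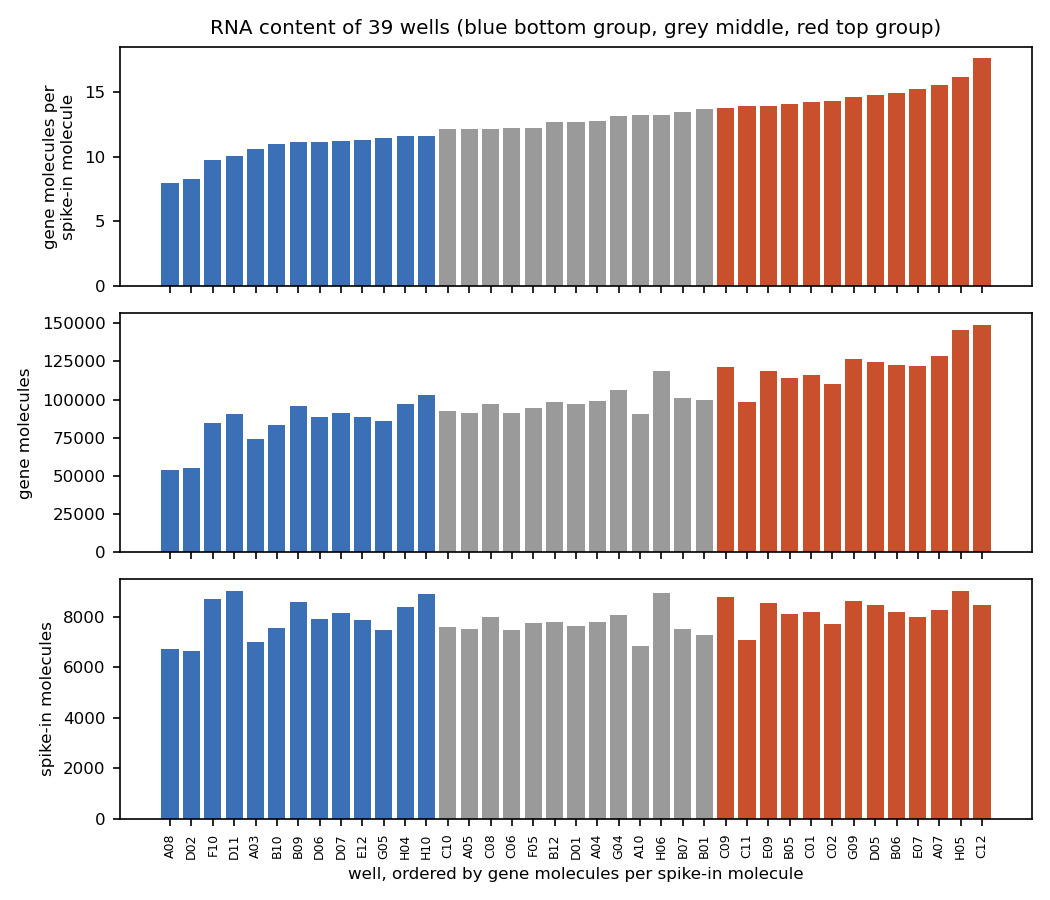
Gene molecules per spike-in molecule (upper panel), gene molecules (middle panel) and spike-in molecules (lower panel) in each of the 39 wells, ordered by content, with 1 bar per well. Content rises from 8.01 to 17.6, gene molecules follow it, and spike-in molecules stay between 6659 and 9030.

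At the limits, well H08 just missed with 52812 gene molecules and A08 just entered with 53975. H05, a top well, held 20.5 Krt8 and Krt18 molecules per 10000, the next well inside was C02 with 8.97, and G12 just outside held 29.2. The most spike-in molecules inside the limit were 9030 in H05, and the fewest outside were 36465 in C03. H10 closed the bottom group at 11.6 gene molecules per spike-in molecule and C10 opened the middle group at 12.1. B01 closed the middle group at 13.7 and C09 opened the top group at 13.8, so neighbours across the borders differed little.

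The top group drew 5 of its 13 wells from chip row C, which gave none to the bottom group, and the bottom group drew 4 from row D, which gave 1 to the top group. The part of well position in the results was not tested.

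The cells were checked against their label. The summed level of 18 ES cell markers, among them Dppa5a, Pou5f1 and Sox2, had medians of 131 molecules per 10000 gene molecules in the bottom group, 117 in the middle and 120 in the top. The ranges were 27.7 to 225 in the bottom group and 48.7 to 241 in the top group. All 18 markers were detected in these wells. Summed levels of 10 trophectoderm markers were 4.00 or less in every well, and those of 11 mesendoderm and neural markers 3.60 or less. The 14 primitive endoderm markers summed to 11.6 in D01, 7.95 in D02 and 6.52 in C02, with a lower sum in every other well. The 7 markers of a 2-cell-like state summed to 6.11 in A08 and to 0.206 or less elsewhere.

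Well D02, in the bottom group, went against the label. Its ES cell markers summed to 27.7 per 10000, below all other wells, the highest of which held 241. Its feeder fibroblast markers summed to 214, against 6.63 to 47.7 elsewhere, and 10 of the 20 in the table were higher there than in any other well. They included Lgals1 at 73.2, S100a6 at 43.4, Tagln at 22.2, Vim at 21.0 and Anxa1 at 16.3 per 10000, of which Tagln and Vim were picked after their values were seen. The fibroblast collagen genes Col1a1, Col1a2, Col3a1 and Col5a1 had no molecule in D02, and neither had Thy1 or S100a4, so no cell type is assigned to it.

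A second bottom well, A03, had 49.4 ES cell marker molecules and 47.7 feeder marker molecules per 10000, and the highest histone level at 103. The bottom well with the lowest content, A08, had 177 and 14.3 for the 2 marker lists. Main results that rest on D02 or A03 are also given without them, without A03, A08 and D02, or without the highest bottom well.

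Levels are molecules per 10000 gene molecules of the same well, so a gene that kept its share of the total has a log2 fold near 0 between groups, whatever the content. A gene was counted as higher or lower if the mean level of one group, with 0.1 added, was at least 1.5 times that of the other, and still was without the highest well of the higher group. Genes with a mean level of at least 0.5 over the 39 wells were compared, which left 2814 of the 13670 genes detected in them.

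Most genes kept their share. The log2 fold, top over bottom, had a median of 0.05 and lay between -0.58 and 0.65 for the central 90% of genes, and 88.6% of genes stayed within 1.5-fold. It was positive for 57.3% of genes, the share against which the counts of positive members below are to be read. By the full rule 86 genes were higher in the top group, 3.06% of those compared, and 35 were lower, 1.24%. Without D02 the counts were 83 and 35, of which 72 and 25 were the same genes. In no gene did the bottom and top group separate completely, and none of the 125 genes with a mean level of 10 or more passed the rule.

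The differences sat among low-abundance genes, where counting error is large. Mean levels were below 1 per 10000 for 60 of the 86 higher genes and 29 of the 35 lower genes, against 45.9% of all genes compared. Spike-ins treated in the same way give the spread without a cell. At 5 to 20 molecules per well the SD of the log2 fold was 0.281 over 7 spike-ins and 0.425 over 2044 genes. At 20 to 100 molecules it was 0.129 over 10 spike-ins and 0.278 over 643 genes, and at 100 or more it was 0.0801 over 9 spike-ins and 0.218 over 127 genes. Genes thus spread more widely than spike-ins at every depth. None of these 26 spike-ins passed the rule, but the lowest log2 fold among those at 5 to 20 molecules was -0.72, beyond 1.5-fold. With 3.06% of genes passing as higher and 1.24% as lower, 26 spike-ins are too few to show whether the rule calls fewer of them.

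The middle group, which the fold did not use, lay between the other 2 for 66 of the 86 higher genes and 25 of the 35 lower genes, and for 35.4% of all genes compared. Genes chosen for a large fold have more room for a middle value, so the shares are not a test.

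The groups were formed by gene molecules per spike-in molecule, so a gene that kept its share is higher in the top group on that scale. Per spike-in molecule the median gene was 1.46 times higher in the top group. Only 243 genes, 8.64%, had fewer molecules per spike-in molecule in the top than in the bottom group, and all 35 lower genes were among them. The ranking and the size rule together all but fix this, since the groups differ 1.41-fold in content and a lower gene at least 1.5-fold in share.

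**Figure D2:**
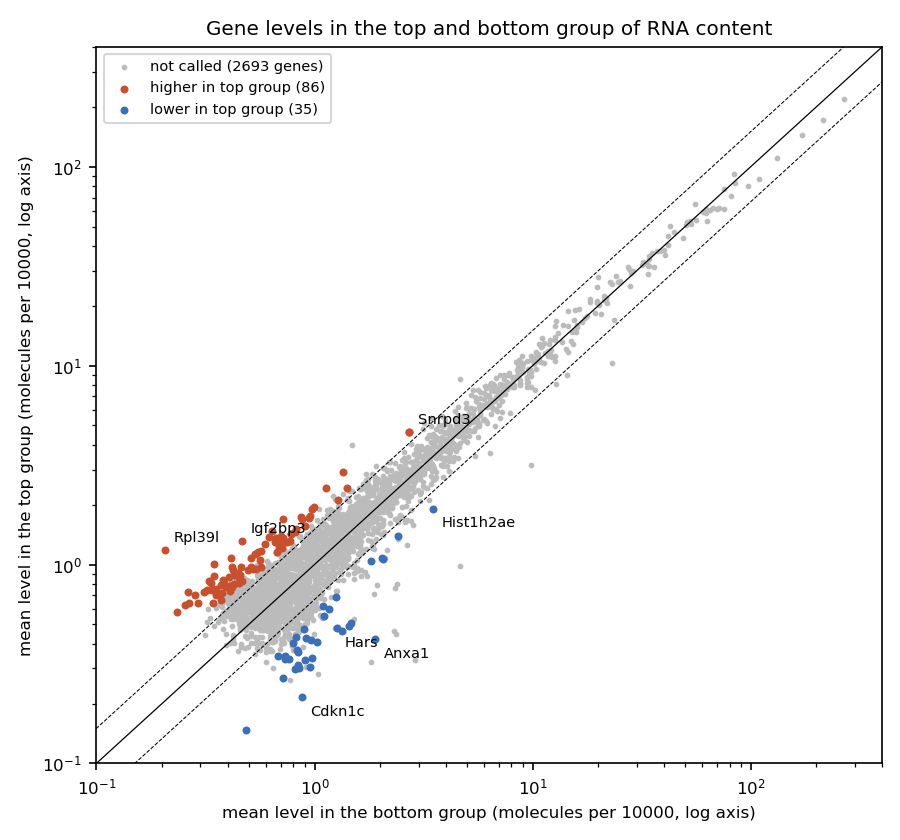
Mean level of each of 2814 genes in the bottom group (x) and the top group (y), in molecules per 10000 gene molecules on log axes, with the solid line at equality and dashed lines at 1.5-fold. The 86 genes higher (red) and 35 lower (blue) in the top group lie mostly at low levels, and the abundant genes follow the line.

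Histone messages took a smaller share in cells with more RNA. The summed level of the 75 genes with names of the Hist clusters, most of which encode replication-dependent core and linker histones, had medians of 39.1 per 10000 in the bottom group, 35.1 in the middle and 27.4 in the top. The bottom wells ranged from 11.4 to 103 and the top wells from 12.3 to 42.1. The groups overlapped, yet 12 of the 13 top wells lay below the median of the bottom group.

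Per 1000 spike-in molecules the same genes had medians of 42.6 in the bottom group and 42.9 in the top group. The highest wells had 109 in the bottom group and 61.7 in the top group. Histone molecules per spike-in molecule thus had a top to bottom ratio of means of 0.906, while all gene molecules together had one of 1.41. Without A03 that histone ratio was 1.03, and the log2 fold of the summed level was -0.45 in place of -0.63. Without D02 it was -0.64.

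All 12 histone genes compared had a lower mean level in the top group, with log2 folds from -2.10 to -0.22 and a median of -0.56, against 0.05 for all genes. The median was -0.53 without D02, and -0.43 without A03, A08 and D02. One of the 12, Hist1h2ae, passed the rule.

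Hist1h2ae, an H2A gene on chromosome 13 (23570517 to 23571220, GRCm38) whose promoter heads the sequences above, was read only from unique matches. It ranged from 0.59 to 7.83 per 10000 in the bottom group with a median of 2.83, from 0.33 to 5.53 in the middle with a median of 1.31, and from 0.20 to 3.62 in the top with a median of 2.29. The means were 3.50, 2.00 and 1.91. The log2 fold was -0.84, and 6 bottom wells exceeded every top well, while the low ends of the groups overlapped. Pooled over wells, the bottom group gave 398 molecules, or 3.65 per 10000 with a 95% Poisson interval of 3.30 to 4.02, and the top group 306 molecules, or 1.91 (1.71 to 2.14). These intervals cover counting error only.

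Hist1h3c and Hist1h4d are named for their unique reads, a choice made after their values were seen. Hist1h3c, an H3 gene with 4 CCAAT words in its promoter, had means of 0.63 in the bottom, 0.82 in the middle and 0.44 in the top group. Hist1h4d, an H4 gene, had 1.13, 1.54 and 0.84. For both, the middle group was the highest, so their levels did not follow content step by step.

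The most abundant histone entries were 2 loci of Hist1h2ap, with means of 12.8 and 6.36 in the bottom group and 8.13 and 3.65 in the top group. None of their molecules rested on unique matches, so these entries cannot be told apart from other copies. Hist1h2bc, an H2B gene named here after its values were seen, had the most negative log2 fold at -2.10. That value came from D02, where its level was 23.1, and was -0.28 without it.

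The other cell cycle genes, taken as lists, lay near 0 or on the other side. The 34 genes of G1 and S phase, which include the licensing and DNA synthesis genes, had summed medians of 46.9 in the bottom group, 57.9 in the middle and 58.7 in the top. Of 26 compared, 18 had a positive log2 fold, 2 passed the rule as higher and none as lower, where 57.3% of all genes were positive and 3.06% passed as higher. These were Cdt1, a replication licensing factor, with a log2 fold of 1.01, and Fen1, the flap endonuclease of lagging strand synthesis, with 0.89. Cdt1 only just passed: its mean level was 0.502, and its log2 fold without the highest top well was 0.590 against a limit of 0.585. For Fen1 the middle mean of 1.26 was above the top mean of 0.91. The median over the list was 0.18, and 0.10 without D02.

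Genes of G2 and M phase, among them Ccnb1, the cyclin of mitotic entry, had summed medians of 71.8, 61.3 and 73.9 from bottom to top. None of 32 compared passed the rule, 21 had a positive and 11 a negative log2 fold, and the median was 0.09. Hmgb2, the most abundant of them, had means of 14.5, 12.4 and 11.8 from bottom to top. Its log2 fold was -0.30, or -0.36 without D02, and that of Ccnb1 was -0.08. Hells, a chromatin remodeller, and Dut, which keeps uracil out of DNA, both of the G1 and S list, had log2 folds of 0.28 and 0.23.

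**Figure D3:**
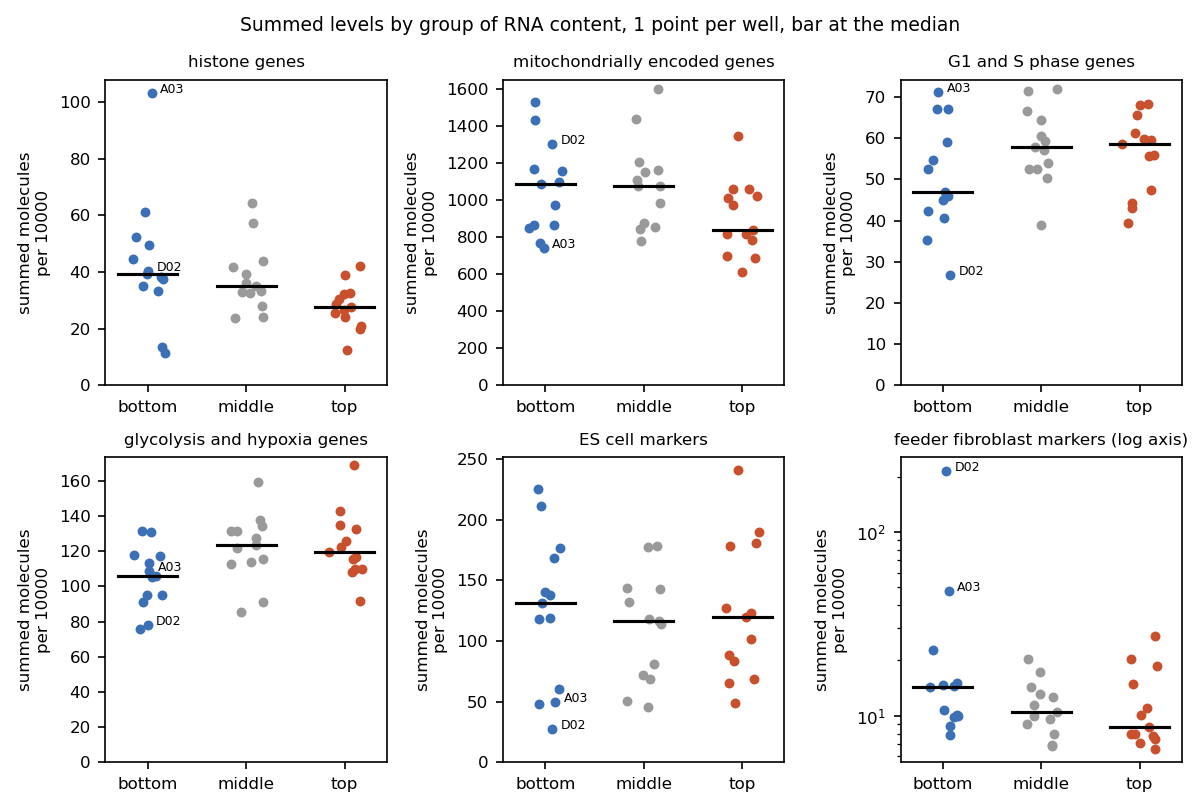
Summed level of 6 gene lists in each well, in molecules per 10000 gene molecules, by group of RNA content, with 1 point per well and a bar at the median of 13 wells. Histone medians run from 39.1 to 27.4 from bottom to top and mitochondrially encoded ones from 1088 to 835. The feeder panel has a log axis and shows D02 at 214 and A03 at 47.7.

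Transcripts of the mitochondrial genome also took a smaller share in the top group, by less than the size rule. The summed level of the 15 mitochondrially encoded genes ranged from 740 to 1529 per 10000 in the bottom group with a median of 1088, and from 612 to 1343 in the top with a median of 835. The middle group, with a median of 1076, sat with the bottom group. All 15 had a negative log2 fold, the median was -0.21, and none passed the rule.

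Among them mt-Rnr2, the large ribosomal RNA of the mitochondrion, had means of 215, 212 and 171 per 10000 from bottom to top. mt-Co1, a subunit of cytochrome c oxidase, had 172, 169 and 144. Per spike-in molecule the whole group was 1.21 times higher in the top group, less than the 1.41-fold of all gene molecules. The nuclear-encoded genes of the same respiratory chain, such as Cox7c and Cox8a, showed no such shift: of 76 compared, 38 had positive and 38 negative log2 folds, and the median was 0.00.

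Rn45s, the precursor of the cytoplasmic ribosomal RNAs, had the highest level of any gene, with means of 267 in the bottom, 258 in the middle and 218 in the top group and a log2 fold of -0.29. Its medians were 237, 259 and 219 from bottom to top, so the middle group was the highest by median. Without the highest bottom well, at 552, its log2 fold was -0.16. Rn45s did not speak for its list: of 9 nuclear noncoding RNAs compared, 7 had a positive log2 fold. Of 150 small nucleolar RNAs, 4 could be compared. All 4 had negative log2 folds with a median of -0.54, and none passed the rule. None of the molecules of Snora26, 1 of the 4, rested on unique matches. The summed level of the 150 had medians of 8.71, 10.4 and 6.40 from bottom to top, so the middle group was the highest. Reads assigned to ribosomal RNA repeats had medians of 1297, 1254 and 1099 per 10000 gene molecules from bottom to top.

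Lists of growth and RNA processing genes had medians slightly above that of all genes, and their shares of genes that passed the rule were near the 3.06% over all genes. Splicing factor genes had summed medians of 150 per 10000 in the bottom group, 158 in the middle and 167 in the top, with ranges of 86.6 to 171 and 152 to 193 in the outer groups. Of 41 compared, 30 had a positive log2 fold and the median was 0.18, or 0.11 without D02, against 0.05 for all genes. Their summed level followed content over the 39 wells with a Spearman rho of 0.476, a description over cells that share a chip and whose counts share a denominator.

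Snrpd3, a core Sm protein of the spliceosome, was the 1 splicing gene that rose by the rule. It ranged from 1.27 to 4.46 per 10000 in the bottom group with a median of 2.52, from 3.31 to 7.19 in the middle with a median of 4.05, and from 2.92 to 6.68 in the top with a median of 4.05. The log2 fold of the means, 2.73 and 4.63, was 0.74. The middle and top medians were the same, and both sat above most of the bottom wells.

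Ribosome biogenesis genes, which build the ribosomal subunits in the nucleolus, had a median log2 fold of 0.14 over 38 compared, with 27 positive, against 57.3% of all genes. Gar1, a protein of the H/ACA ribonucleoprotein, was the 1 that passed the rule, with means of 0.42, 0.76 and 0.98 from bottom to top and a log2 fold of 1.06. The abundant nucleolar proteins Npm1 and Ncl had 0.22 and 0.21. The list of Myc-linked and nucleotide synthesis genes had 22 of 25 positive and a median of 0.24, or 0.15 without D02. In it Srm, the spermidine synthase, rose with a log2 fold of 0.90.

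Glycolysis genes had summed medians of 106, 124 and 119 per 10000 from bottom to top. Of 15 compared 12 had a positive log2 fold, with a median of 0.18. Pdk1, the kinase that restrains pyruvate dehydrogenase, rose with a log2 fold of 0.72, and the abundant enzymes Gapdh and Pkm had 0.25 and 0.32.

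The translation machinery itself kept its share. Cytosolic ribosomal protein genes had summed medians of 1458, 1376 and 1481 per 10000 and a median log2 fold of 0.07 over 76 genes, and translation factors had 0.09 over 33. Rps29 had means of 75.3 and 77.1 in the bottom and top group. The 1 ribosomal protein gene that passed the rule was the paralog Rpl39l.

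Rpl39l encodes a ribosomal protein that resembles Rpl39 and is best known from the testis. Its gene lies on chromosome 16 (10170226 to 10174911, GRCm38), and all its reads were unique matches. In the bottom group its level ran from 0 to 0.48 per 10000 with a median of 0.18, in the middle from 0 to 1.42 with a median of 0.20, and in the top from 0.08 to 3.21 with a median of 1.09. Of the top wells 7 exceeded every bottom well and the other 6 lay within the bottom range, so the top group held wells with and without a high level.

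The means of Rpl39l were 0.21, 0.40 and 1.18 from bottom to top. The log2 fold of 2.07 was the most positive of all genes compared, and it was 1.86 without the highest top well. Pooled, 22 molecules in the bottom group gave 0.201 per 10000 (95% Poisson interval 0.126 to 0.305) and 185 in the top group gave 1.16 (0.997 to 1.34).

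Rpl22l1, a paralog of the ribosomal protein gene Rpl22, also rose. Its level ran from 0.11 to 1.40 per 10000 with a median of 0.56 in the bottom group, and from 0.57 to 3.20 with a median of 1.27 in the top. The log2 fold was 1.09. Only 53.4% of its molecules rested on unique matches, so copies elsewhere cannot be told apart. It did not pass the rule with 2 groups of wells in place of 3, or with wells ranked by gene molecules alone.

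Igf2bp3, an RNA-binding protein that binds Igf2 messages, ran from 0 to 1.33 per 10000 with a median of 0.39 in the bottom group and from 0 to 2.90 with a median of 1.28 in the top. Its means rose from 0.47 through 0.99 to 1.31, a log2 fold of 1.31. The groups overlapped, since 1 top well had no molecule.

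The other genes with the largest positive differences had log2 folds between 1.06 and 1.31. Thg1l, which adds a guanosine to histidine tRNA, had means of 0.35, 1.05 and 1.01 from bottom to top. Slc25a11, the mitochondrial oxoglutarate carrier, had 0.26, 0.61 and 0.73. Gcn1l1, an activator of the kinase Gcn2, had 0.28, 0.58 and 0.70. In these 3 the middle group already sat near the top group.

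Jub, the LIM protein Ajuba, and 1110002B05Rik, listed by RefSeq as Sptssa, a small subunit of serine palmitoyltransferase, had log2 folds of 1.13 and 1.11. Khdrbs1, the RNA-binding protein Sam68, had 1.13, with 54.4% of its molecules from unique matches. Idi1 of cholesterol synthesis had 1.06, but 17.6% from unique matches, so its copies cannot be separated. Spp1, the secreted protein osteopontin, had 1.20, yet its top median of 0.18 lay below its bottom median of 0.34. Its mean rested on few wells, with a highest level of 5.50. With 2 groups of wells Spp1, Khdrbs1, 1110002B05Rik and Idi1 did not pass, and with wells ranked by gene molecules alone Spp1, Idi1 and Slc25a11 did not. Jub did not pass without A03, A08 and D02 when the groups were formed again, nor did Spp1, and Khdrbs1 did not with 4 groups.

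**Figure D4:**
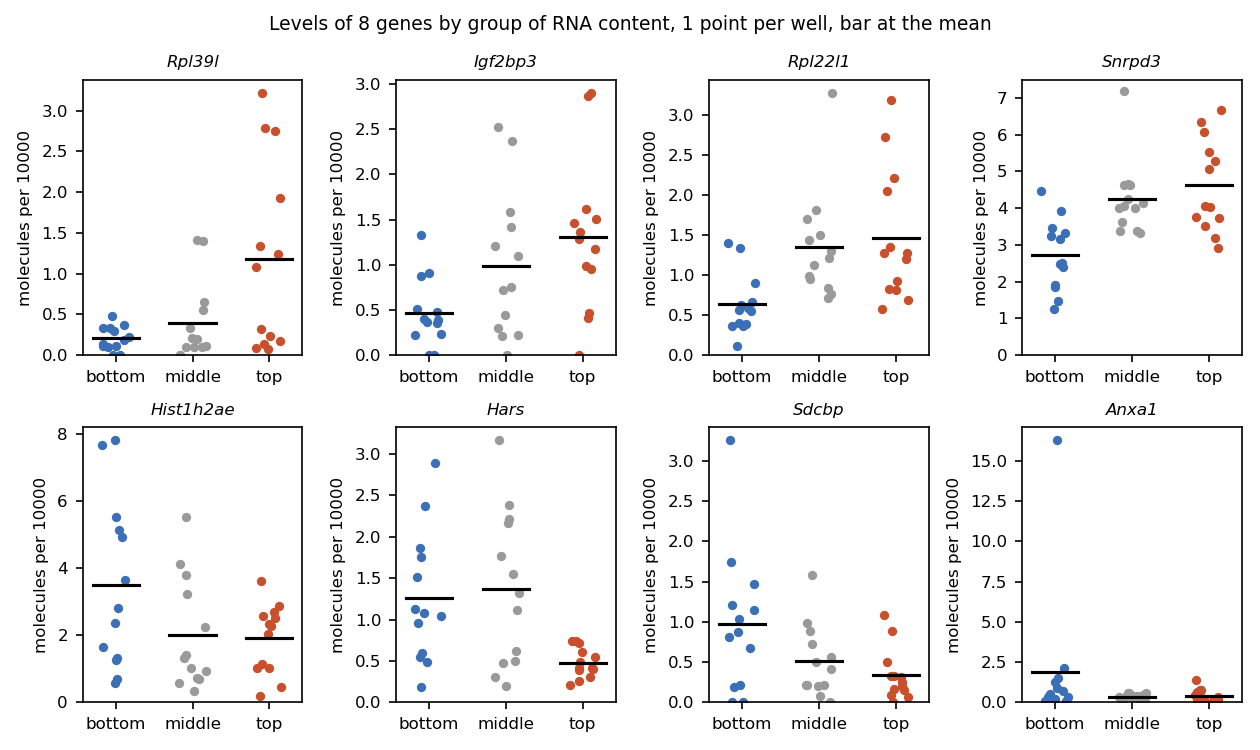
Level of 8 genes in each well, in molecules per 10000 gene molecules, by group of RNA content, with 1 point per well and a bar at the mean. The groups overlap for each gene. Rpl39l has 7 top wells above every bottom well, Hars is at 0.74 or less in all top wells, and the Anxa1 mean of the bottom group is set by 1 well at 16.3.

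Hars, the histidyl-tRNA synthetase, fell. It ran from 0.19 to 2.89 per 10000 with a median of 1.08 in the bottom group, from 0.20 to 3.17 with a median of 1.32 in the middle, and from 0.21 to 0.74 with a median of 0.42 in the top. The log2 fold was -1.24, and -1.08 without D02, which held the highest bottom value. No top well exceeded 0.74, while the other 2 groups spread over the whole range. Pooled, 136 molecules in the bottom group gave 1.25 per 10000 (95% Poisson interval 1.05 to 1.47) and 77 in the top gave 0.482 (0.380 to 0.602).

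Ccs, the copper chaperone of superoxide dismutase 1, ran from 0.10 to 1.58 per 10000 with a median of 1.05 in the bottom group and from 0 to 0.82 with a median of 0.16 in the top. Its log2 fold was -1.23, and -1.20 without D02. Sdcbp, the scaffold protein syntenin, ran from 0 to 3.25 with a median of 0.88 in the bottom group and from 0 to 1.09 with a median of 0.25 in the top. Its log2 fold was -1.29, and -1.01 without D02, and it did not pass with 4 groups of wells. For both, the middle mean lay between the other 2.

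Cdkn1c, the cell cycle inhibitor p57, had a log2 fold of -1.63 with medians of only 0.34 and 0.08 and a highest bottom well at 5.20. Without that well it was -0.96, and Cdkn1c did not pass the rule without A03, A08 and D02. Ccdc48, listed by RefSeq as Efcc1, had -1.37, but its bottom median was 0 and its top median 0.08, so a few wells made its mean, and it did not pass with 2 groups of wells or with wells ranked by gene molecules alone. Gng10, a G protein gamma subunit, had -1.23, and -0.86 without D02, and did not pass without A03, A08 and D02 or with 2 groups of wells.

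The remaining genes with the most negative log2 folds lost their call without D02, but Fst and Aldh2 kept most of their fold. Anxa1, an annexin of the feeder marker list, had -1.94 with D02, where it stood at 16.3 per 10000, and -0.63 without. Tpm2, a tropomyosin, went from -1.38 to -0.73, and Cald1, the actin-binding caldesmon, from -1.34 to -0.89. Hcfc1r1, a regulator of the cofactor HCF-1, went from -1.37 to -0.89. Fst, the activin antagonist follistatin, went from -1.24 to -1.12, and its middle mean of 0.87 was above both outer groups. Aldh2, an aldehyde dehydrogenase, went from -1.21 to -1.10. The summed feeder list had a log2 fold of -1.36 with D02, and its 9 genes compared had a median of -1.48 with D02 and -0.24 without.

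The log2 fold of the summed ES cell markers was 0.00, but 0.38 with 4 groups of wells in place of 3 and -0.16 with 2 groups, so the split set its direction. Of 16 ES cell markers compared, 6 had a positive and 10 a negative log2 fold, none passed the rule, and the median was -0.08. Dppa5a, the most abundant, ran from 15.4 to 181 per 10000 in the bottom group and from 20.4 to 170 in the top, with means of 84.7 and 83.1. Zfp42, the marker Rex1, had means of 9.79, 6.76 and 9.25 from bottom to top. Wells of the bottom and top group covered nearly the same range of Dppa5a.

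Genes of the naive and primed states of pluripotency gave directions that did not hold for every split of the wells. All 4 naive-state genes compared had a negative log2 fold, with a median of -0.49. Klf2, a transcription factor of the naive network, fell with -0.83, but its middle mean of 0.86 was above its bottom mean of 0.79. Of 10 primed-state genes 8 had a positive log2 fold, with a median of 0.31, or 0.23 without D02. Pim2, a serine/threonine kinase, rose with 0.90, but its medians were 0.60 in the bottom group and 0.69 in the top. Its top mean of 1.90 rested on few wells, with a highest level of 4.91. Summed naive levels had medians of 9.83, 6.47 and 6.08 from bottom to top within ranges of 3.51 to 38.1 and 2.63 to 34.7 in the outer groups. The log2 fold of the summed naive level was -0.24, but 0.23 with 4 groups of wells in place of 3, and that of the summed primed level was 0.35, but -0.04 with 4 groups.

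Among the other lists, Polr3g, a subunit of RNA polymerase III, rose with a log2 fold of 0.81, and Rpn2, a subunit of the oligosaccharyltransferase, with 0.79. Jarid2, a partner of the Polycomb complex PRC2, fell with -0.86, and Ppp1r15a, the stress-induced phosphatase subunit Gadd34, with -0.93. Heat shock chaperones, proteasome subunits and translation factors had medians between 0.08 and 0.12, near that of all genes. Hsp90ab1, an abundant chaperone, had 0.02 and the nuclear RNA Malat1 had 0.12.

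The remaining lists held few genes that passed the rule. Of 22 cytoskeleton genes none did, and their median log2 fold was -0.14, or 0.10 without D02, whose summed cytoskeleton level of 478 was the highest. Of 15 metallothionein, antioxidant and ferritin genes, 11 had a negative log2 fold and the median was -0.19. Cholesterol synthesis genes, among 10 of which Idi1 passed, had a median of 0.16, and chromatin genes, among 26 of which Jarid2 passed, one of 0.14.

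The polymerase subunits had a median log2 fold of 0.10 over 13 genes, secretory genes 0.03 over 26, nuclear noncoding RNAs 0.11 over 9 and genes of the integrated stress response 0.23 over 6. Genes of p53 and apoptosis had a median of -0.06 over 9 and none passed the rule, but their summed level had medians of 15.0 in the bottom and 12.1 in the middle group and a log2 fold, top over bottom, of -0.37. Of the top wells 10 of 13 lay below the bottom median. The log2 fold of that sum was -0.57 with 4 groups of wells, and -0.17 without A03, A08 and D02. Immediate early genes had -0.08 over 12 and imprinted genes -0.07 over 7, with Cdkn1c passing as lower. Of 14 primitive endoderm markers 2 could be compared, and Fst fell. No gene of the trophectoderm, mesendoderm and neural or 2-cell-like lists reached the minimum level.

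**Figure D5:**
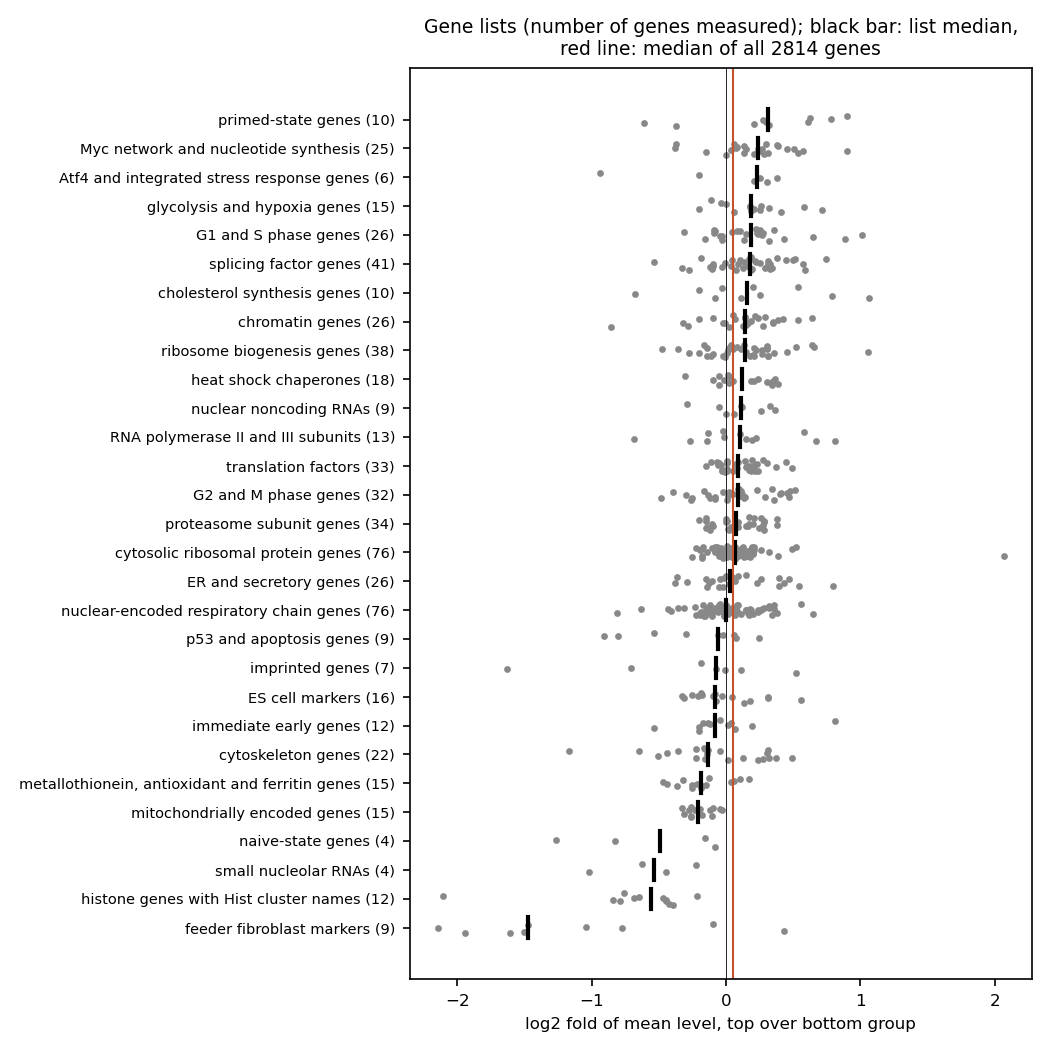
Log2 fold of the mean level, top over bottom group, for each gene compared in 29 lists, with 1 point per gene, a black bar at the list median and a red line at the median of 0.05 over all 2814 genes. All 12 histone genes and all 15 mitochondrially encoded genes lie below 0, and most lists centre near the red line.

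The number of genes detected depends on the number of molecules read. Medians were 6508, 6572 and 7011 genes per well from bottom to top. After each well was thinned to 53975 gene molecules, the depth of the shallowest, they were 5573, 5644 and 5720. The difference between top and bottom medians was 503 genes before thinning and 147 after.

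Repeat-derived molecules, counted apart from genes, had medians of 9229, 10108 and 8671 per 10000 gene molecules from bottom to top and overlapped widely. B3 elements, a class of short interspersed repeats, had medians of 210, 160 and 130. The 4.5S RNA, a small RNA related to B1 repeats, went the other way with 218, 1058 and 869, within ranges of 68.9 to 3066 in the bottom group and 49.4 to 2246 in the top. Both outer groups therefore held wells with very low and very high 4.5S RNA.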

How the data were processed

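Molecule counts per gene and well were used as deposited by the authors. Multiply mapped reads are part of these counts and went to the exonic match nearest the 5′ end, per the file headers, and a further column counts the molecules that rest on unique matches (73.3% of gene molecules). Per the submitters' processing notes, Bowtie and build mm10 (GRCm38) were used, with no version. Per the labels' protocols, cells were captured on a microfluidic chip, lysed with spike-ins, reverse transcribed with template switching and amplified by 21 cycles of PCR. Molecules are told apart by molecular identifiers, so amplification bias is reduced, but molecules lost before reverse transcription are not seen.

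The table held 24264 genes, 96 spike-ins and 1554 repeat types in 96 wells, and all columns were used or tested against the limits. Of the wells not used, 47 were under the gene molecule limit, 2 over the spike-in limit and 8 at or over the keratin limit. Well E02 was left out by name, and A11 missed both the gene molecule and the keratin limit. Doublets were not called. Counts were divided by the gene molecules of the well and multiplied by 10000. The bottom and top group were compared by mean level with 0.1 added, a limit of 1.5-fold and a minimum mean level of 0.5. No count test was run, since 1 culture is 1 sample. The fold rule was run on simulated counts with built-in differences and a variance set by hand. That run checked the calculation and does not show how many calls here come from counting error. Python 3.11.15, numpy 2.4.6, pandas 2.3.3, scipy 1.17.1 and matplotlib 3.10.9 were used.

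Named genes are the 12 with the largest fold in each direction, from each list with at least 3 genes compared the 2 with the highest level and up to 2 that passed the rule, and the 5 most abundant genes; genes outside this rule are marked in the text. The members and the 33 gene lists were chosen with earlier results of these data known. Gene positions are from GENCODE and promoters from RefSeq, both on GRCm38. Alternatives changed the split, the limits, the denominator, the ranking, the pseudocount, the minimum level and the wells.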

Additional observations from a re-analysis of the deposited data

How the results depend on the processing

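From 86 higher and 35 lower genes, the counts became 12 and 8 with 0.5 added in place of 0.1, 26 and 6 with a minimum mean level of 1, 219 and 121 with 0.2, and 420 and 267 with none. With 2 groups of wells in place of 3, 44 genes were higher and the content ratio between groups was 1.29 in place of 1.41, and with 4 groups 131 were higher and 71 lower. Lower genes numbered 54 with mitochondrial genes and Rn45s left out of the denominator, 55 with keratins under 10 per 10000, and 54 without H05, a setting added after the data were seen. Leaving out each well in turn gave 78 to 107 higher and 34 to 54 lower genes and a content ratio of 1.38 to 1.42. With 0.5 added, Rpl39l, Thg1l, Igf2bp3, Rpl22l1, Hcfc1r1, Cald1, Sdcbp, Hars and Ccs kept their call among the 24 leading genes. With at least 80000 gene molecules, which leaves out A03, A08 and D02, 47 higher and 18 lower genes were shared with the groups as reported. All 12 histone genes stayed negative in each alternative, with a median log2 fold of -0.65 to -0.36, and 13 to 15 of 15 mitochondrially encoded genes did. Changing the minimum level, or allowing at most 10000 spike-in molecules, kept the same wells and could not change these folds. The summed feeder markers turned from a log2 fold of -1.36 to 0.034 with at least 80000 gene molecules, and likewise with A03, A08 and D02 left out and the groups formed again, a setting added later that drops the same wells. Markers of a 2-cell-like state, near 0 in most wells, turned from -3.52 to 0.020 without those 3 wells, and ranged from -3.89 to 0.28 with each well left out in turn, the latter without A08. Detected genes differed by 503 between top and bottom without thinning. Causes were not tested beyond what each setting's construction shows. No paired analysis was possible because each column of the table belongs to both library forms of a cell and no test was made between them. Low levels limit single genes: at 0.5 per 10000 a well holds only a few molecules.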
